A study of Homo sapiens with 9 samples.

Results

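The genes described here are 43 genes of homologous recombination and the Fanconi anemia pathway, taken by symbol from a given list. The rule reads no measured value, but the list was chosen with earlier results of these data known. All 43 were found among the 112171 features of the count table, and all 43 had enough counts to be tested, as did 22353 features in all. Total RNA came from PANC-1 cells, an established human line grown from a pancreatic carcinoma. Every culture spent 12 h in hypoxia, in medium with rakicidin A at 42 nM, BE-43547A1 at 41 nM, or the solvent DMSO at 0.04%, and each group has 3 libraries. Rakicidin A is a cyclic lipodepsipeptide of bacterial origin. The molar doses of the compounds are close but not equal, and the labels do not say whether the compound cultures also held DMSO. Cells at normal oxygen were not part of the comparison, so each difference is one within hypoxia. Whether replicate libraries stem from different cultures is not stated. The p-values therefore reflect only how far these libraries scatter, and that scatter may be technical.

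Homologous recombination repairs broken or stalled DNA by copying an intact sister molecule. The broken ends are first cut back to single strands by nucleases, after which BRCA1, PALB2 and BRCA2 prepare the strands for pairing with the intact copy, and helicases and nucleases take the joined molecules apart. The Fanconi anemia pathway removes crosslinks between the DNA strands: a core complex attaches ubiquitin to the FANCD2 and FANCI pair, which brings in nucleases and the recombination proteins. The kinases ATM and ATR signal the damage to CHEK2 and CHEK1. Many of these genes are known to be transcribed mostly in cells that replicate their DNA, and inherited loss of BRCA1, BRCA2, PALB2 or ATM raises the risk of pancreatic cancer.

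For the genes whose levels moved most or moved differently with the compounds, the promoter windows are shown so that the sequence can be read beside the values that follow. Each window holds 250 bases before the first transcribed base and 30 bases from it on, on the strand of the gene, from RefSeq on GRCh38.p14. PIF1, FANCF and XRCC2 are the members that fell furthest with BE-43547A1, and EXO1 differed most between the compounds among the resection genes. ATM and CHEK1 moved in opposite directions with the compounds on the TMM scale defined below, though not with total counts alone. The windows lie at chr15:64825618-64825897 on the minus strand for PIF1, chr11:22625794-22626073 on the minus strand for FANCF, chr7:152676112-152676391 on the minus strand for XRCC2, chr1:241847954-241848233 on the plus strand for EXO1, chr11:108222817-108223096 on the plus strand for ATM and chr11:125625979-125626258 on the plus strand for CHEK1. Capitals mark the motifs that were searched on both strands: the E2F motif (TTTCCCGC, TTTCGCGC, TTTGCCGC or TTTGGCGC), the CHR element (TTTGAA), the CCAAT box (CCAAT) and the CRE (TGACGTCA). The palindromic NRF1 motif was searched as well.
PIF1: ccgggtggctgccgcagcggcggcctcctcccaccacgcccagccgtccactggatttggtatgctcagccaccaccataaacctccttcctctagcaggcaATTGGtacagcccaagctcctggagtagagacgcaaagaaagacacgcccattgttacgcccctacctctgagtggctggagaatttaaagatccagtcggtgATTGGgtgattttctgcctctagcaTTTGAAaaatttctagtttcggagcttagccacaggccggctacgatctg
FANCF: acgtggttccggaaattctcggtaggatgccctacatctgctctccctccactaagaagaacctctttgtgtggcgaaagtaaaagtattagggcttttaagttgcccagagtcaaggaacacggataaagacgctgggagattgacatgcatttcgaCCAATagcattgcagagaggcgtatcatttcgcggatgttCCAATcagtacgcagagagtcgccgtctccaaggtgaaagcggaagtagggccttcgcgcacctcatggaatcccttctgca
XRCC2: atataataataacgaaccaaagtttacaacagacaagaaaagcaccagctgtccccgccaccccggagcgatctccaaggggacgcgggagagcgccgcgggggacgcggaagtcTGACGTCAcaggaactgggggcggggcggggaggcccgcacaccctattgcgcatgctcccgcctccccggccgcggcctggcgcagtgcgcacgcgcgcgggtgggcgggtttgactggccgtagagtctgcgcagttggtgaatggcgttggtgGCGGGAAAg
EXO1: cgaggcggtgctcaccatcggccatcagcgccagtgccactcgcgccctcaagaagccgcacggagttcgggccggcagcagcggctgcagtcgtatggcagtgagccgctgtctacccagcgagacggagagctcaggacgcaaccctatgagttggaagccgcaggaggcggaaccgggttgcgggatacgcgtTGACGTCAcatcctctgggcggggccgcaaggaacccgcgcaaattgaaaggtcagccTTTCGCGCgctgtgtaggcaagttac
ATM: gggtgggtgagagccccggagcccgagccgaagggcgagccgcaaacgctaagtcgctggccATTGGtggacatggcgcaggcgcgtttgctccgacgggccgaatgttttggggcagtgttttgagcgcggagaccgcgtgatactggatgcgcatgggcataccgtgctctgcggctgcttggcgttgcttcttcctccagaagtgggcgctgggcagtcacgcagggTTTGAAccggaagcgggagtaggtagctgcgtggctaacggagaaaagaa
CHEK1: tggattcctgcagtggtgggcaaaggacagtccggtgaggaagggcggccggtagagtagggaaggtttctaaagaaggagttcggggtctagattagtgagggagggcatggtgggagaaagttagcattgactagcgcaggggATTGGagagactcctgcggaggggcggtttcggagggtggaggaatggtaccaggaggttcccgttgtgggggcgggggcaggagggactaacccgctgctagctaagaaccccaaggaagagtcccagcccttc

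The motifs differed among these windows. A CHR element lay shortly before the start in PIF1 and in ATM, PIF1 and FANCF each held a pair of CCAAT boxes, and XRCC2 and EXO1 each held a CRE and an E2F motif. In CHEK1 the CCAAT box was the only match. The RefSeq table held a window for 37 of the 43 members, MRE11A under its current symbol MRE11. For each member the first window listed under its symbol was taken, which need not hold the main start of the gene. The 35116 windows used beside them are all entries of the table, not 1 per gene, so the shares have unlike units. An E2F motif lay in 6 of the 37 windows (16.2%), against 3.14% of all 35116 windows of the same length. A CRE lay in 3 (8.11%, against 1.85%), a CCAAT box in 16 (43.2%, against 33.6%) and a CHR element in 4 (10.8%, against 14.5%). The NRF1 motif lay in 1 (2.7%, against 1.21%), which is none of the windows shown. A match describes letters in a window and is not a binding site.

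Counts on annotated features came to 26203326 to 34870860 in the rakicidin A libraries, 39807220 to 45048999 in the BE-43547A1 libraries and 27696394 to 30596594 in the DMSO libraries. The members took 0.259 to 0.264% of these counts with rakicidin A, 0.213 to 0.218% with BE-43547A1 and 0.330 to 0.354% in DMSO. Levels are given as CPM, counts set relative to the library size after TMM, a scaling that takes most genes as unchanged. On that scale the median feature moved by -0.02 log2 units with rakicidin A and by -0.00026 with BE-43547A1. With total counts as the only scaling it moved by -0.38 with rakicidin A and by -0.24 with BE-43547A1. In bulk RNA, fewer cells that transcribe a gene and less of its RNA per cell cannot be told apart. Of 7 markers listed for PANC-1 carcinoma cells, KRT8, KRT18 and KRT19, keratins of epithelia, were at 751 to 1234 CPM in the group means. These keratins are 3 of the 7, and the levels of the other listed markers are not given one by one. The levels show keratin RNA, do not stand for the whole list and do not identify the line. The 7 listed markers differed between the groups, with sums of 6669 to 6859 CPM with rakicidin A, 8410 to 9087 with BE-43547A1 and 7323 to 7656 in DMSO. Of the 7, 4 fell with rakicidin A, and 4 rose and 1 fell with BE-43547A1. Compared directly, 6 were lower with rakicidin A than with BE-43547A1. Summed leukocyte markers came to 2.37 to 2.84 CPM with rakicidin A, 3.58 to 4.41 with BE-43547A1 and 1.68 to 2.10 in DMSO, with 0 counts of CD3E and 9 counts of PTPRC over the 9 libraries. Summed stromal and endothelial markers came to 4.69 to 5.97 CPM with rakicidin A, 6.17 to 7.80 with BE-43547A1 and 8.18 to 12.4 in DMSO. Of these lists 3 of 6 leukocyte and 2 of 8 stromal and endothelial markers had enough counts to be tested, and 8 acinar and islet markers had 0 to 3 counts each over all libraries, with INS and PTF1A at 0. The part of such RNA in the results was not tested.

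Most of the recombination and Fanconi anemia genes were lower with either compound than in DMSO, and more of them, by larger amounts, with BE-43547A1. With rakicidin A 27 of 43 members fell and 6 rose, where 32.7% of all tested features fell and 31.9% rose (edgeR, adjusted p below 0.05). With BE-43547A1 35 members fell and 2 rose, where 35.1% of all features fell and 35.3% rose. The members' median log2 fold change was -0.38 with rakicidin A and -0.69 with BE-43547A1, beside the medians of all features near 0 given above. Among the 12685 tested protein coding genes, the class to which the members belong, 35.9% fell and 37.4% rose with rakicidin A (median -0.0020), and 40.3% fell and 33.8% rose with BE-43547A1 (median -0.068). With total counts alone, 40 members fell with each compound, 1 rose with rakicidin A and none with BE-43547A1, and the members' medians were -0.74 with rakicidin A and -0.92 with BE-43547A1. The DMSO libraries are shared by the comparisons of both compounds, so the sets of calls are not independent. Because the list was chosen with earlier results known, its lean beside all features is a description, not a test. Falls of at least 1 log2 unit that passed occurred in 7 members with rakicidin A, beside 13.8% of all features, and in 12 with BE-43547A1, beside 14.1%. No member rose by that much, where 14% of all features did with rakicidin A and 17.5% with BE-43547A1.

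**Figure D1:**
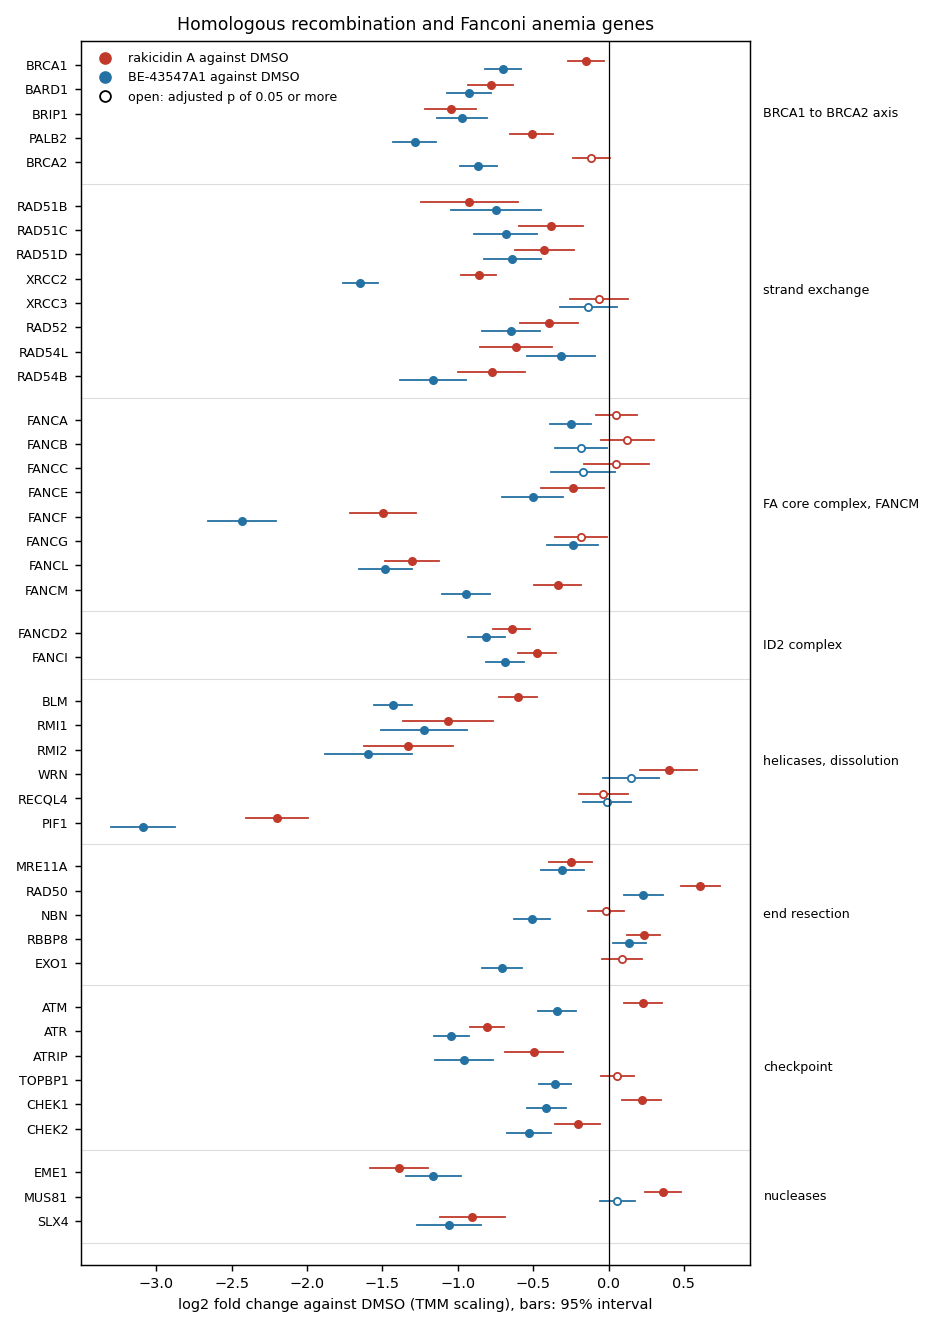
Log2 fold change of each of the 43 members against DMSO with its 95% interval, rakicidin A above BE-43547A1 within each gene, grouped by role. Filled points passed at an adjusted p below 0.05. Most points lie left of 0, the BE-43547A1 points usually further left, and PIF1 and FANCF are lowest.

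Gene by gene, 27 members were lower with both compounds, where 26.1% of all features were, and RAD50 and RBBP8 were higher with both, where 24.8% were. ATM and CHEK1 were higher with rakicidin A and lower with BE-43547A1, a combination seen in 1.84% of all features. No member was lower with rakicidin A and higher with BE-43547A1 (0.72% of all features). BRCA2, FANCA, FANCG, NBN, EXO1 and TOPBP1 passed, as lower, with BE-43547A1 and did not pass with rakicidin A. WRN and MUS81 passed, as higher, with rakicidin A alone, and XRCC3, FANCB, FANCC and RECQL4 passed with neither. These patterns are those of the TMM scale. With total counts alone the only rise that passed was that of RAD50 with rakicidin A, and ATM and CHEK1 were lower with both compounds. In the libraries themselves, all 3 rakicidin A values lay below all 3 DMSO values in 28 members and above them in 7, where 34.2% and 33.3% of all features did so. All 3 BE-43547A1 values lay below the DMSO values in 36 members and above them in 3, against 35.9% and 35.7% of all features.

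Genes of the BRCA1, PALB2 and BRCA2 axis fell together with BE-43547A1, where all 5 passed, while 4 of 5 passed with rakicidin A and most fell less. Of all features 35.1% fell with BE-43547A1 and 32.7% with rakicidin A. BRCA1, the ubiquitin ligase that starts recombination at a break, stood at 82.7, 80.6 and 85.6 CPM with rakicidin A, 54.1, 59.2 and 56.1 CPM with BE-43547A1 and 91.1, 88.7 and 96.0 CPM in DMSO. All rakicidin A libraries lay just under the DMSO libraries, and the BE-43547A1 libraries lay far under both. The log2 fold change of BRCA1 was -0.15 ± 0.057 (SE) with rakicidin A (edgeR adjusted p 0.0284) and -0.70 ± 0.057 with BE-43547A1 (adjusted p 2.66e-09). The rakicidin A call was lost when rakicidin A replicate 1, 2 or 3, BE-43547A1 replicate 2 or 3, or DMSO replicate 3 was left out (log2 fold changes within -0.17 to -0.11, adjusted p 0.0587 to 0.165). It was also lost with DESeq2 (adjusted p 0.0567), with no filter (0.0868) and in the fit of 6 libraries (0.0642).

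BRCA2, a mediator of recombination that binds PALB2, had 72.2, 73.1 and 77.5 CPM with rakicidin A, 43.1, 43.8 and 45.7 CPM with BE-43547A1 and 82.7, 82.5 and 76.0 CPM in DMSO. The BE-43547A1 libraries stood apart from the others, whereas the rakicidin A and DMSO ranges overlapped. Its log2 fold change was -0.86 ± 0.058 with BE-43547A1 (adjusted p 1.93e-10) and -0.11 ± 0.057 with rakicidin A (adjusted p 0.0905, 95% interval -0.23 to 0.01). Without DMSO replicate 3, whose value was the lowest of its group, BRCA2 passed with rakicidin A as well (log2 fold change -0.15, adjusted p 0.0161), as it did with total counts alone (-0.47).

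PALB2, the bridge between BRCA1 and BRCA2, had 26.2, 26.3 and 28.4 CPM with rakicidin A, 14.9, 15.8 and 16.5 CPM with BE-43547A1 and 39.6, 38.9 and 36.6 CPM in DMSO. The 3 groups did not overlap, with rakicidin A between BE-43547A1 and DMSO. PALB2 changed by -0.51 ± 0.068 with rakicidin A (adjusted p 2.59e-06) and by -1.29 ± 0.069 with BE-43547A1 (adjusted p 7.64e-12).

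BARD1, the partner that BRCA1 needs for its ligase activity, had 25.3, 28.9 and 25.8 CPM with rakicidin A, 25.2, 24.4 and 22.8 CPM with BE-43547A1 and 48.2, 46.2 and 43.4 CPM in DMSO. Both compounds brought it below every DMSO library, by -0.78 ± 0.071 with rakicidin A and -0.93 ± 0.070 with BE-43547A1 (adjusted p 1.44e-08 and 9.41e-10). BRIP1, the helicase that binds BRCA1 and is also known as FANCJ, had 25.4, 30.9 and 27.4 CPM with rakicidin A, 28.3, 31.8 and 28.3 CPM with BE-43547A1 and 60.0, 61.2 and 52.3 CPM in DMSO. Its libraries overlapped between the compounds and lay below DMSO with both, with changes of -1.05 ± 0.081 with rakicidin A and -0.97 ± 0.079 with BE-43547A1 (adjusted p 1.59e-09 and 3e-09). In the direct test given further on, BRCA1, PALB2 and BRCA2 were lower with BE-43547A1 than with rakicidin A, and BARD1 and BRIP1 did not pass.

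**Figure D2:**
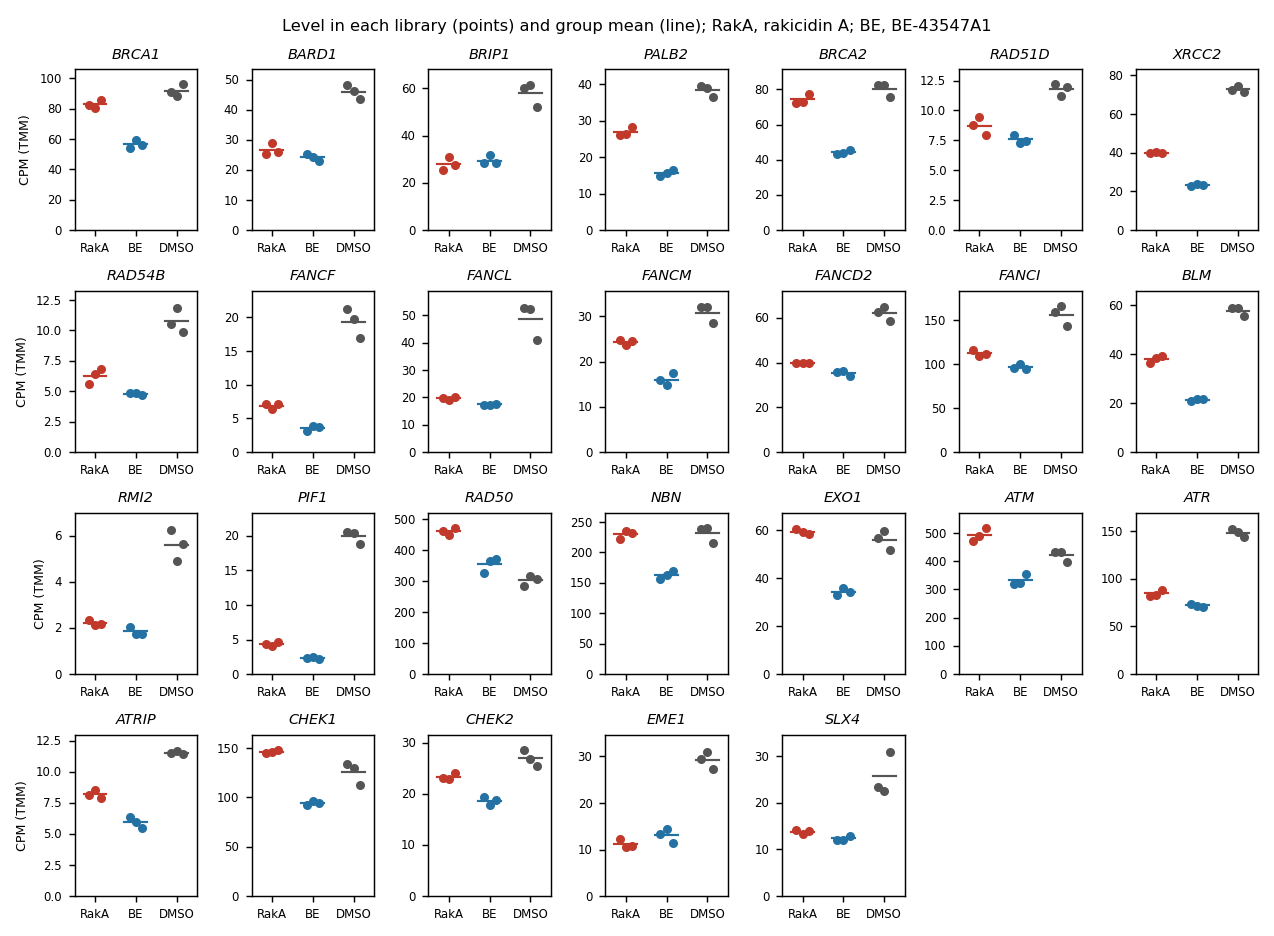
CPM (TMM-scaled, vertical axis from 0) in each of the 9 libraries for the 26 members described library by library, with points for libraries and a line for the group mean (RakA, rakicidin A; BE, BE-43547A1). In PIF1, FANCL and ATR both compounds sit well below DMSO, in EXO1 and NBN rakicidin A overlaps DMSO, and in RAD50 both compounds sit above it.

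Among the genes of strand exchange, 7 of 8 (87.5%) fell with each compound, and XRCC3 passed with neither. Of all features 32.7% fell with rakicidin A and 35.1% with BE-43547A1. XRCC2, a subunit of a complex that assists strand exchange, had 40.03, 40.4 and 39.8 CPM with rakicidin A, 22.9, 23.6 and 23.2 CPM with BE-43547A1 and 72.7, 74.4 and 71.5 CPM in DMSO. Spread within the groups was small and no groups overlapped, with the lowest levels under BE-43547A1. XRCC2 fell by 0.86 log2 units with rakicidin A (SE 0.055, adjusted p 1.03e-10) and by 1.65 with BE-43547A1 (SE 0.056, adjusted p 1.08e-14), the largest fall of this group with BE-43547A1.

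RAD51D, another subunit of that complex, was among the members with the lowest levels and had 8.77, 9.50 and 7.95 CPM with rakicidin A, 7.96, 7.29 and 7.48 CPM with BE-43547A1 and 12.2, 11.2 and 12.0 CPM in DMSO. Both compounds lay below DMSO and overlapped each other, with changes of -0.43 ± 0.093 with rakicidin A and -0.64 ± 0.091 with BE-43547A1 (adjusted p 0.000569 and 5.29e-06). RAD54B, a DNA translocase of recombination, had 5.60, 6.43 and 6.83 CPM with rakicidin A, 4.84, 4.87 and 4.68 CPM with BE-43547A1 and 10.5, 11.9 and 9.86 CPM in DMSO. It too lay below DMSO in every library of either compound, with changes of -0.77 ± 0.11 with rakicidin A and -1.16 ± 0.10 with BE-43547A1 (adjusted p 3.48e-06 and 1.15e-08). In the GENCODE v29 annotation 59.1% of the exon bases of RAD54B are shared with FSBP on the same strand, so the source of its counts is uncertain.

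Of the other strand exchange genes, RAD51B and RAD51C, which work in complexes with the same role, changed by -0.92 ± 0.15 and -0.38 ± 0.10 with rakicidin A and by -0.75 ± 0.14 and -0.68 ± 0.099 with BE-43547A1 (adjusted p at most 0.00262). RAD52, an annealing protein, changed by -0.40 ± 0.092 with rakicidin A and -0.65 ± 0.090 with BE-43547A1 (adjusted p 0.000964 and 3.83e-06). RAD54L, the human RAD54, fell more under rakicidin A, with -0.61 ± 0.11 against DMSO for rakicidin A and -0.31 ± 0.11 for BE-43547A1 (adjusted p 0.000118 and 0.0149). Its call with BE-43547A1 was lost without BE-43547A1 replicate 3 (log2 fold change -0.21, adjusted p 0.106). For XRCC3 the values were -0.06 ± 0.091 with rakicidin A and -0.13 ± 0.089 with BE-43547A1 (adjusted p 0.558 and 0.19). XRCC3 passed with BE-43547A1 without DMSO replicate 3 (-0.23, adjusted p 0.0139). In GENCODE v29, 76.7% of its exon bases are also covered by KLC1 on the other strand, and the strand setting of the counting is not given, so XRCC3 and KLC1 reads may not be separable. The same limit holds for smaller parts of RAD54L (25.1%), FANCA (23.6%), FANCL (19.7%), ATR (16.4%), EME1 (16.4%), MUS81 (14.1%) and FANCF (11.3%), which genes on the other strand cover.

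The Fanconi core complex was split: FANCF and FANCL fell far, FANCE and FANCM fell less, and FANCA, FANCB, FANCC and FANCG did not pass with rakicidin A. In all 4 of 8 (50%) fell with rakicidin A, beside 32.7% of all features, and 6 of 8 (75%) with BE-43547A1, beside 35.1%. FANCF, the adaptor that holds the core complex together, had 7.10, 6.43 and 7.09 CPM with rakicidin A, 3.19, 3.85 and 3.71 CPM with BE-43547A1 and 21.2, 19.8 and 16.96 CPM in DMSO. The groups did not overlap, and the lowest DMSO library was still over the highest rakicidin A library. Its log2 fold change was -1.49 ± 0.10 with rakicidin A and -2.43 ± 0.11 with BE-43547A1 (adjusted p 3.63e-10 and 4.77e-13), a fall to 0.355 of the DMSO level with rakicidin A and 0.185 with BE-43547A1.

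FANCL, the ubiquitin ligase subunit of the core complex, had 19.9, 19.1 and 20.0 CPM with rakicidin A, 17.1, 17.4 and 17.8 CPM with BE-43547A1 and 52.6, 52.3 and 40.9 CPM in DMSO. Both compounds lay far below DMSO, whose replicate 3 was lower than its other libraries. FANCL changed by -1.31 ± 0.086 with rakicidin A and -1.48 ± 0.084 with BE-43547A1 (adjusted p 1.53e-10 and 1.89e-11). FANCM, the translocase that anchors the core complex to DNA, had 24.9, 23.7 and 24.7 CPM with rakicidin A, 15.9, 14.8 and 17.4 CPM with BE-43547A1 and 32.1, 32.0 and 28.6 CPM in DMSO. The rakicidin A libraries lay between the BE-43547A1 and DMSO libraries without overlap, with changes of -0.34 ± 0.075 with rakicidin A and -0.94 ± 0.075 with BE-43547A1 (adjusted p 0.000659 and 2.34e-09).

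The remaining core subunits moved by less. FANCE, which links the core to FANCD2, changed by -0.24 ± 0.099 with rakicidin A and -0.50 ± 0.097 with BE-43547A1 (adjusted p 0.0426 and 0.000144). Its rakicidin A call was lost without any one library other than DMSO replicate 3 (log2 fold changes within -0.26 to -0.20, adjusted p 0.0541 to 0.157). It was lost as well with RLE scaling (adjusted p 0.0547), no filter (0.155), DESeq2 (0.113) and the fit of 6 libraries (0.0731). FANCA and FANCG, which form a subcomplex, had log2 fold changes of -0.25 ± 0.065 and -0.24 ± 0.080 with BE-43547A1 (adjusted p 0.00215 and 0.0133). With rakicidin A they were 0.05 ± 0.066 and -0.18 ± 0.082 (adjusted p 0.507 and 0.0613). The FANCG call with BE-43547A1 was lost without BE-43547A1 replicate 3 (-0.14, adjusted p 0.119), and FANCG passed with rakicidin A without DMSO replicate 3 (-0.23, adjusted p 0.0168).

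FANCB and FANCC, also subunits of the core, gave 0.12 ± 0.083 and 0.05 ± 0.10 with rakicidin A and -0.18 ± 0.082 and -0.17 ± 0.10 with BE-43547A1, none of which passed (adjusted p 0.0563 to 0.681). With BE-43547A1, FANCB passed without DMSO replicate 3 (-0.25, adjusted p 0.00941) and FANCC without DMSO replicate 1 (-0.29, adjusted p 0.00901). The small positive rakicidin A values of FANCA, FANCB and FANCC turned to -0.31, -0.23 and -0.31 with total counts alone.

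The ID2 pair, the substrate of the core complex, fell with both compounds. FANCD2 had 39.7, 39.7 and 39.9 CPM with rakicidin A, 35.8, 36.2 and 34.2 CPM with BE-43547A1 and 62.6, 65.0 and 58.8 CPM in DMSO. The rakicidin A libraries differed little among themselves and lay between the other groups. FANCD2 changed by -0.64 ± 0.059 with rakicidin A and -0.81 ± 0.059 with BE-43547A1 (adjusted p 1.88e-08 and 5.59e-10). FANCI had 115, 109.5 and 111 CPM with rakicidin A, 95.4, 100.4 and 94.8 CPM with BE-43547A1 and 159, 166 and 144 CPM in DMSO. It followed the same order without overlap, with changes of -0.48 ± 0.059 with rakicidin A and -0.69 ± 0.059 with BE-43547A1 (adjusted p 1.1e-06 and 6.68e-09). Near-identical pseudogene copies exist for FANCD2, CHEK2 and RBBP8, so reads of these genes may have been split or left out in the counting.

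Of the helicases and the complex that dissolves joined DNA molecules, PIF1, BLM, RMI1 and RMI2 fell with both compounds. PIF1, a helicase that unwinds G-quadruplexes and promotes the DNA synthesis of break-induced replication, showed the largest fall of all 43 members. Its levels were 4.37, 4.06 and 4.64 CPM with rakicidin A, 2.32, 2.52 and 2.20 CPM with BE-43547A1 and 20.6, 20.5 and 18.8 CPM in DMSO. All groups stood apart, and the lowest DMSO library exceeded every library of either compound. PIF1 changed by -2.20 ± 0.098 with rakicidin A and -3.09 ± 0.10 with BE-43547A1 (adjusted p 4.53e-13 and 5.43e-15), that is to 0.218 of the DMSO level with rakicidin A and 0.118 with BE-43547A1.

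BLM, the helicase mutated in Bloom syndrome, had 36.5, 38.5 and 39.1 CPM with rakicidin A, 20.7, 21.8 and 21.8 CPM with BE-43547A1 and 58.9, 58.7 and 55.7 CPM in DMSO. The order of the groups was the same as for PIF1, with changes of -0.60 ± 0.060 with rakicidin A and -1.43 ± 0.061 with BE-43547A1 (adjusted p 5.03e-08 and 2.33e-13). RMI2, a small subunit of the BLM complex, had 2.37, 2.14 and 2.19 CPM with rakicidin A, 2.05, 1.75 and 1.75 CPM with BE-43547A1 and 6.24, 4.93 and 5.65 CPM in DMSO. RMI2 lay below DMSO with both compounds, by -1.33 ± 0.14 with rakicidin A and -1.59 ± 0.14 with BE-43547A1 (adjusted p 1.44e-07 and 6.17e-09), on few counts. RMI1, the subunit that ties BLM to its topoisomerase, changed by -1.06 ± 0.14 with rakicidin A and -1.23 ± 0.14 with BE-43547A1 (adjusted p 2.55e-06 and 2.09e-07). So all 3 measured subunits of the BLM complex on the list were lower with both compounds.

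The RecQ helicases WRN and RECQL4 did not fall on the TMM scale. WRN, mutated in Werner syndrome, rose by 0.40 ± 0.090 with rakicidin A (adjusted p 0.00076), although with total counts alone its value was 0.04 and did not pass. With BE-43547A1 its value was 0.15 ± 0.089 (adjusted p 0.139, 95% interval -0.04 to 0.34), -0.09 with total counts alone, and it passed without DMSO replicate 1 (0.24, adjusted p 0.0267). RECQL4 gave -0.04 ± 0.077 with rakicidin A and -0.01 ± 0.075 with BE-43547A1 (adjusted p 0.708 and 0.923, 95% intervals -0.20 to 0.13 and -0.17 to 0.15), and with total counts alone it passed as lower at -0.39 with rakicidin A and -0.25 with BE-43547A1.

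The resection genes went both ways, as all features did. Of 5 genes 2 rose (40%) and 1 fell (20%) with rakicidin A, beside 31.9% and 32.7% of all features. With BE-43547A1 2 rose (40%) and 3 fell (60%), beside 35.3% and 35.1%. RAD50, the coiled-coil ATPase of the MRE11 complex that tethers broken ends, had 463, 447 and 471 CPM with rakicidin A, 325, 366 and 371 CPM with BE-43547A1 and 283, 315 and 308 CPM in DMSO. The 3 groups did not overlap, with rakicidin A highest and DMSO lowest. Its log2 fold change was 0.61 ± 0.062 with rakicidin A (adjusted p 7.18e-08), the largest rise among the members, and 0.23 ± 0.061 with BE-43547A1 (adjusted p 0.00277), and with total counts alone the BE-43547A1 value was -0.01 and did not pass. In GENCODE v29, 79.7% of the exon bases of RAD50 are shared with other annotated genes, AC116366.3 on the same strand and TH2LCRR on the other, so the source of these counts is uncertain.

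NBN, the subunit of the same complex that recruits ATM, had 222, 235 and 232 CPM with rakicidin A, 157, 163 and 169 CPM with BE-43547A1 and 239, 241 and 216 CPM in DMSO. Rakicidin A overlapped DMSO, and BE-43547A1 lay below both. NBN gave -0.02 ± 0.057 with rakicidin A (adjusted p 0.831, 95% interval -0.14 to 0.11; -0.37 with total counts alone) and -0.51 ± 0.057 with BE-43547A1 (adjusted p 2.59e-07). MRE11A, the nuclease of the complex, changed by -0.25 ± 0.067 with rakicidin A and -0.31 ± 0.067 with BE-43547A1 (adjusted p 0.00311 and 0.00048). The 3 subunits of this one complex thus had unequal changes: with BE-43547A1 NBN and MRE11A fell while RAD50 rose on the TMM scale and was at -0.01 with total counts alone.

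EXO1, the exonuclease of long-range resection, had 60.6, 59.1 and 58.3 CPM with rakicidin A, 32.9, 35.7 and 34.1 CPM with BE-43547A1 and 56.5, 59.6 and 51.6 CPM in DMSO. Its rakicidin A and DMSO ranges overlapped, and every BE-43547A1 library was lower. EXO1 gave 0.09 ± 0.063 with rakicidin A (adjusted p 0.237; -0.27 with total counts alone) and -0.71 ± 0.063 with BE-43547A1 (adjusted p 1.14e-08). RBBP8, known as CtIP, which starts resection with MRE11, rose by 0.23 ± 0.053 with rakicidin A and 0.14 ± 0.053 with BE-43547A1 on the TMM scale (adjusted p 0.000872 and 0.0265), but with total counts alone these values turned to -0.13 with rakicidin A and -0.10 with BE-43547A1. The BE-43547A1 rise of RBBP8 was also lost without BE-43547A1 replicate 2 or 3 or DMSO replicate 1 or 3 (adjusted p 0.0518 to 0.0844).

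In the checkpoint group all 6 genes fell with BE-43547A1, where 35.1% of all features did. With rakicidin A 3 fell (50%) and 2 rose (33.3%), beside 32.7% and 31.9% of all features. ATM, the kinase activated by double-strand breaks, had 472, 489 and 518 CPM with rakicidin A, 321, 323 and 355 CPM with BE-43547A1 and 433, 434 and 396 CPM in DMSO. Rakicidin A lay above and BE-43547A1 below the DMSO libraries, with no overlap. ATM changed by 0.23 ± 0.060 with rakicidin A (adjusted p 0.00275) and by -0.34 ± 0.060 with BE-43547A1 (adjusted p 5.99e-05), and with total counts alone the rakicidin A value turned to -0.13 (adjusted p 0.0444).

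CHEK1, the kinase that ATR activates, had 145, 146 and 148 CPM with rakicidin A, 92.5, 96.4 and 94.2 CPM with BE-43547A1 and 134, 129.7 and 113 CPM in DMSO. The order was the same as for ATM, and again no groups overlapped. CHEK1 changed by 0.22 ± 0.062 with rakicidin A (adjusted p 0.00427) and by -0.41 ± 0.062 with BE-43547A1 (adjusted p 9.46e-06), and with total counts alone the rakicidin A value turned to -0.14 (adjusted p 0.0486). Both genes were thus opposite in sign between the compounds on the TMM scale and lower with both on the scale of total counts.

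ATR, the kinase that answers stalled replication, had 82.4, 83.4 and 88.7 CPM with rakicidin A, 73.7, 71.9 and 70.5 CPM with BE-43547A1 and 152, 149 and 144 CPM in DMSO. Both compounds lay far below DMSO, with BE-43547A1 lowest. ATR changed by -0.81 ± 0.054 with rakicidin A and -1.04 ± 0.054 with BE-43547A1 (adjusted p 1.96e-10 and 4.61e-12). ATRIP, the partner that brings ATR to single-stranded DNA, had 8.15, 8.57 and 7.86 CPM with rakicidin A, 6.36, 5.93 and 5.52 CPM with BE-43547A1 and 11.6, 11.7 and 11.5 CPM in DMSO. It followed ATR, with changes of -0.49 ± 0.091 with rakicidin A and -0.96 ± 0.090 with BE-43547A1 (adjusted p 0.000108 and 2.29e-08), though 27.9% of its exon bases in GENCODE v29 are shared with TREX1.

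CHEK2, the kinase downstream of ATM, had 23.1, 22.8 and 24.0 CPM with rakicidin A, 19.3, 17.8 and 18.7 CPM with BE-43547A1 and 28.5, 26.8 and 25.3 CPM in DMSO. The 3 groups did not overlap, with rakicidin A just under DMSO. CHEK2 changed by -0.21 ± 0.071 with rakicidin A and -0.53 ± 0.070 with BE-43547A1 (adjusted p 0.0163 and 2.07e-06), and the rakicidin A call was lost without rakicidin A replicate 1 or 2 or DMSO replicate 1 (log2 fold changes -0.19, -0.17 and -0.16, adjusted p 0.0665 to 0.0852). TOPBP1, the activator of ATR, changed by -0.36 ± 0.052 with BE-43547A1 (adjusted p 6.7e-06) and gave 0.06 ± 0.052 with rakicidin A (adjusted p 0.337), a value that turned to -0.30 with total counts alone.

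Among the structure-specific nucleases, EME1 and SLX4 fell with both compounds and MUS81 did not. EME1, the partner of MUS81, had 12.2, 10.6 and 10.7 CPM with rakicidin A, 13.4, 14.4 and 11.5 CPM with BE-43547A1 and 29.5, 31.0 and 27.4 CPM in DMSO. Both compounds lay far below DMSO and overlapped each other. EME1 changed by -1.39 ± 0.092 with rakicidin A and -1.16 ± 0.088 with BE-43547A1 (adjusted p 1.72e-10 and 1.05e-09). SLX4, the scaffold that gathers repair nucleases, had 14.2, 13.2 and 13.9 CPM with rakicidin A, 12.1, 12.1 and 12.9 CPM with BE-43547A1 and 23.5, 22.6 and 31.0 CPM in DMSO. DMSO replicate 3 was higher than its other libraries, which were still above every library of either compound. SLX4 changed by -0.91 ± 0.10 with rakicidin A and -1.06 ± 0.10 with BE-43547A1 (adjusted p 3.24e-07 and 2.52e-08). MUS81, the catalytic subunit, rose by 0.36 ± 0.056 with rakicidin A (adjusted p 1.64e-05) on the TMM scale and stood at 0.0026 with total counts alone. With BE-43547A1 MUS81 gave 0.06 ± 0.056 (adjusted p 0.369), which turned to -0.18 with total counts alone. The subunits of the MUS81 and EME1 nuclease thus moved apart in level with rakicidin A.

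Compared directly, the members were higher with rakicidin A at 42 nM than with BE-43547A1 at 41 nM in 27 of 43 cases and lower in 1, where 24.1% of all features were higher and 22.5% lower (edgeR, adjusted p below 0.05 over all features). The members' median difference was 0.27 log2 units, against -0.02 over all features. Of the protein coding genes 35.1% were higher and 19.1% lower with rakicidin A, with a median of 0.068. With total counts alone 18 were higher and 2 lower, the members' median was 0.15 and that of all features -0.14. No member differed by 1 log2 unit or more, where 2.16% of all features were higher by that much and 7.53% lower, and 229 of the 12685 protein coding genes were higher and 303 lower. All 3 rakicidin A values lay above all 3 BE-43547A1 values in 33 members and below them in 0, where 29.2% and 28.3% of all features did so.

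The largest differences were those of FANCF (0.94 ± 0.12, adjusted p 3.65e-06), PIF1 (0.89 ± 0.12, adjusted p 6.27e-06), BLM (0.83 ± 0.062, adjusted p 6.9e-09), EXO1 (0.79 ± 0.064, adjusted p 1.65e-08) and XRCC2 (0.79 ± 0.057, adjusted p 5.35e-09). PALB2 differed by 0.78 ± 0.071, BRCA2 by 0.75 ± 0.058 and, further down the order, BRCA1 by 0.56 ± 0.057 (adjusted p 7.19e-08, 1.13e-08 and 3.15e-07). All 6 checkpoint genes were higher with rakicidin A, CHEK1 by 0.63 ± 0.062, ATM by 0.57 ± 0.060, ATRIP by 0.47 ± 0.095, TOPBP1 by 0.41 ± 0.052, CHEK2 by 0.32 ± 0.071 and ATR by 0.24 ± 0.054 (adjusted p at most 0.00158). FANCM differed by 0.60 ± 0.077, NBN by 0.49 ± 0.057, RAD50 by 0.38 ± 0.061, RAD54B by 0.39 ± 0.11, FANCB by 0.31 ± 0.083, MUS81 by 0.30 ± 0.056 and FANCA by 0.30 ± 0.065 (adjusted p at most 0.0081).

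**Figure D3:**
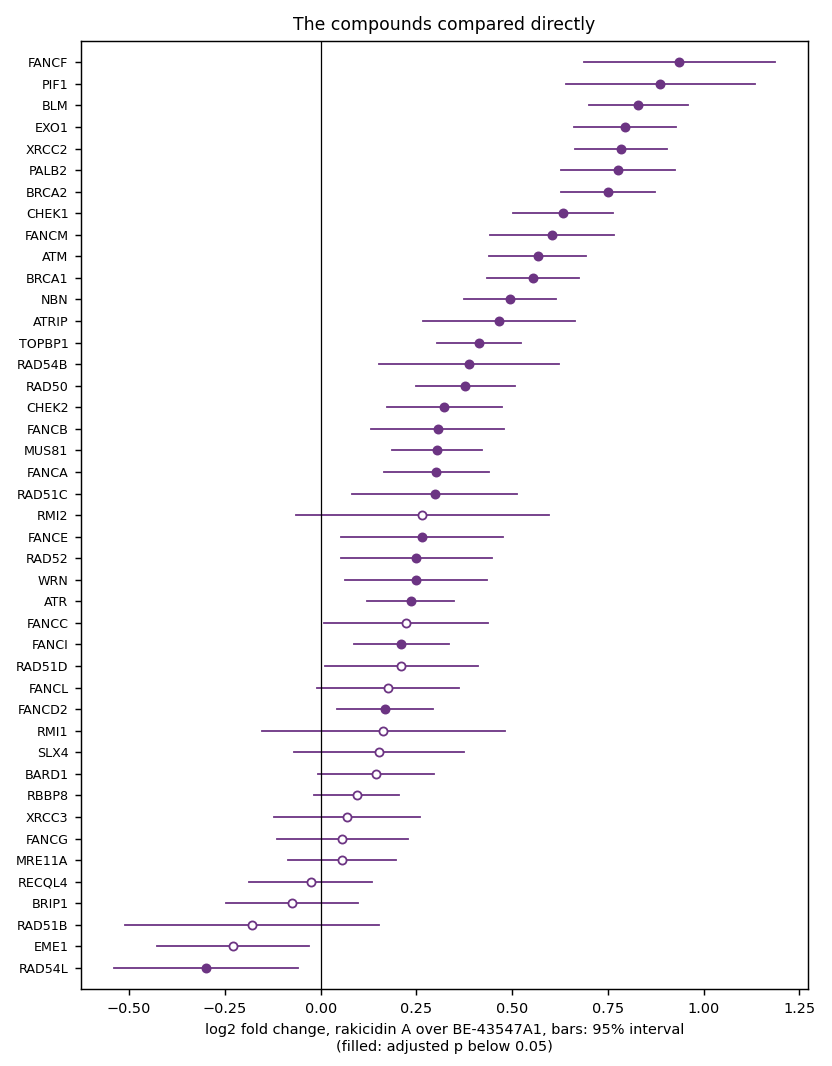
Log2 fold change of rakicidin A over BE-43547A1 for the 43 members with 95% intervals, ordered by size. Filled points passed at an adjusted p below 0.05. 27 filled points lie right of 0, up to 0.94 for FANCF, and RAD54L at -0.30 is the filled point left of it.

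With total counts alone RAD51C, RAD52, RAD54B, FANCB, FANCE, FANCD2, FANCI, WRN and ATR no longer passed. Leaving out single libraries also ended some calls. RAD51C (0.30 ± 0.10), FANCE (0.26 ± 0.10), RAD52 (0.25 ± 0.094), WRN (0.25 ± 0.088) and FANCD2 (0.17 ± 0.060) passed (adjusted p 0.0234 to 0.0378), but each lost its call without certain libraries. For RAD51C these were rakicidin A replicate 1 and BE-43547A1 replicate 1 (adjusted p 0.076 and 0.115), and for RAD52 rakicidin A replicates 2 and 3 and BE-43547A1 replicates 1 and 3 (0.0685 to 0.125). For WRN they were rakicidin A replicates 2 and 3 and BE-43547A1 replicates 1 and 2 (0.0603 to 0.11). FANCE lost its call without rakicidin A replicate 2 or 3 or any BE-43547A1 library (0.0642 to 0.0968), and FANCD2 without any rakicidin A library or BE-43547A1 replicate 1 or 3 (0.056 to 0.0855). FANCI differed by 0.21 ± 0.059 (adjusted p 0.00704). RAD54L, the 1 member lower with rakicidin A (-0.30 ± 0.11, adjusted p 0.0389), had overlapping ranges and lost the call without rakicidin A replicate 1 or 3 or BE-43547A1 replicate 1 or 2 (log2 fold changes -0.28, -0.18, -0.26 and -0.25, adjusted p 0.11 to 0.24).

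For 15 members the direct difference did not pass, which does not show that the compounds acted alike. The 95% interval of the difference was -0.02 to 0.21 for RBBP8, -0.09 to 0.20 for MRE11A, -0.11 to 0.23 for FANCG and -0.12 to 0.26 for XRCC3, whose estimates were above 0 and turned below it with total counts alone (-0.03, -0.06, -0.06 and -0.05). It was -0.19 to 0.13 for RECQL4, -0.25 to 0.10 for BRIP1 and -0.01 to 0.30 for BARD1. For FANCL the interval was -0.01 to 0.36, for FANCC 0.01 to 0.44, for RAD51D 0.01 to 0.41 and for SLX4 -0.07 to 0.37. FANCC passed without DMSO replicate 1 or 3 (adjusted p 0.0318 to 0.046) and in the fit of the 6 libraries compared (0.0301), FANCL without DMSO replicate 3 (0.0155) and in the fit of 6 libraries (0.0338), and RAD51D without rakicidin A replicate 3 (0.0437). The widest intervals belonged to genes with few counts, -0.51 to 0.15 for RAD51B, -0.15 to 0.48 for RMI1 and -0.06 to 0.60 for RMI2. EME1 leaned the other way at -0.23 ± 0.095 (-0.43 to -0.03, adjusted p 0.0563), and passed without rakicidin A replicate 1, BE-43547A1 replicate 3 or DMSO replicate 3 (log2 fold changes -0.29, -0.31 and -0.22, adjusted p 0.0153 to 0.0431) and with total counts alone (-0.35).

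Levels also differed among the members. Per kilobase of exon (GENCODE v29 lengths), TOPBP1, NBN, RBBP8 and RAD50 were the most abundant in DMSO, at 39.8, 37.7, 32.6 and 30.9 CPM per kb. The scarcest were RAD51D, RAD51B and FANCC at 1.04, 0.888 and 0.856 CPM per kb. With rakicidin A RAD50 came first at 47.1 CPM per kb, and with BE-43547A1 RAD50 and RBBP8 led at 36.2 and 35.8. PIF1 stood at 0.935 CPM per kb with rakicidin A, 0.503 with BE-43547A1 and 4.29 in DMSO, and FANCF at 2.33 with rakicidin A, 1.21 with BE-43547A1 and 6.55 in DMSO. Abundant members tended to have the higher log2 fold changes: across the 43 members Spearman's rho between mean log CPM and log2 fold change was 0.50 with rakicidin A and 0.30 with BE-43547A1, and across 12685 coding genes it was 0.30 with rakicidin A and 0.20 with BE-43547A1. These are descriptions across genes, which are not independent replicates.

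**Figure D4:**
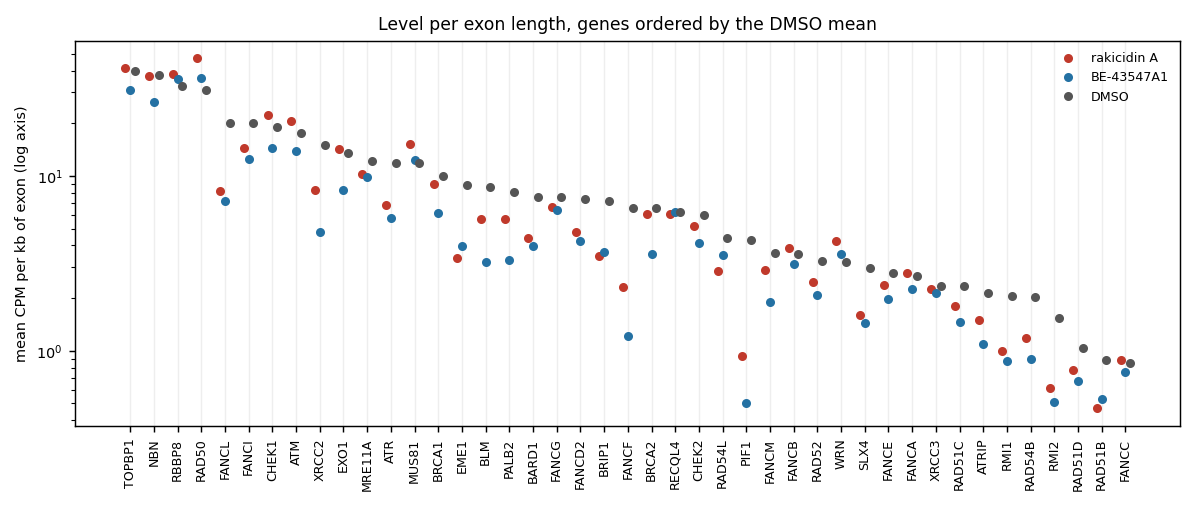
Mean CPM per kb of exon (log axis) for the 43 members in each group, ordered by the DMSO mean from left to right. The 4 leftmost genes are at 26.5 CPM per kb or more in every group, and FANCL, XRCC2, FANCF and PIF1 show wide gaps below their DMSO points.

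The summed level of all 43 members, which the abundant ones dominate, changed less than the median member. The sum was 2887, 2891 and 2974 CPM with rakicidin A, 2156, 2246 and 2270.0 CPM with BE-43547A1 and 3048, 3099 and 2873 CPM in DMSO. On the TMM scale rakicidin A thus overlapped DMSO in the sum, and BE-43547A1 lay below both. The overlap with DMSO depends on RAD50 and likewise on ATM, abundant members that rose with rakicidin A on the TMM scale. The source of the RAD50 counts is uncertain. As a share of all counts on features, the members were lower with rakicidin A (0.259 to 0.264%) than in DMSO (0.330 to 0.354%), without overlap.

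Other genes of the same pathways gave a mixed picture. Of 46 further recombination and Fanconi genes, 11 rose and 21 fell with rakicidin A, and 11 rose and 26 fell with BE-43547A1, with medians of -0.14 for rakicidin A and -0.34 for BE-43547A1. With rakicidin A 23.9% rose and 45.7% fell, beside 31.9% and 32.7% of all features. With BE-43547A1 23.9% rose and 56.5% fell, beside 35.3% and 35.1%. C17orf70, the core complex subunit FAAP100, changed by -1.72 ± 0.073 with rakicidin A and -1.45 ± 0.070 with BE-43547A1. FAN1, a crosslink repair nuclease, changed by -1.01 ± 0.068 with rakicidin A and -1.50 ± 0.068 with BE-43547A1, and HELQ, a helicase that acts at stalled forks, rose by 1.18 ± 0.073 with rakicidin A and 1.57 ± 0.072 with BE-43547A1 (adjusted p at most 2.24e-10 for the 3 genes with either compound).

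Partners of the checkpoint kinases went both ways, as all features did, 6 up and 5 down of 15 with rakicidin A and 4 up and 7 down with BE-43547A1. With rakicidin A 40% rose and 33.3% fell, beside 31.9% and 32.7% of all features. With BE-43547A1 26.7% rose and 46.7% fell, beside 35.3% and 35.1%. RAD9A, part of the clamp that activates ATR, rose by 2.36 ± 0.086 with rakicidin A and 1.72 ± 0.086 with BE-43547A1, while ETAA1, the other activator of ATR, changed by -1.15 ± 0.089 with rakicidin A and -2.28 ± 0.093 with BE-43547A1 and CLSPN, which passes the signal to CHEK1, by -0.83 ± 0.060 with rakicidin A and -0.89 ± 0.059 with BE-43547A1 (adjusted p at most 1.59e-09). Of 15 end-joining genes 4 rose and 4 fell with rakicidin A (26.7% each), and 3 rose (20%) and 7 fell (46.7%) with BE-43547A1. LIG4, the ligase of that pathway, rose by 1.48 ± 0.078 with rakicidin A and 1.14 ± 0.077 with BE-43547A1. TDP1, which clears blocked DNA ends, changed by -0.996 ± 0.075 with rakicidin A and -1.37 ± 0.074 with BE-43547A1, and POLM, a gap-filling polymerase, by -0.64 ± 0.11 with rakicidin A and -0.71 ± 0.11 with BE-43547A1 (adjusted p at most 8.37e-05 for the 3 genes). Of 7 mismatch repair genes 2 rose (28.6%) and 4 fell (57.1%) with rakicidin A and 6 fell (85.7%) with BE-43547A1. Among those that fell were PMS2 (-0.83 ± 0.063 with rakicidin A and -1.32 ± 0.063 with BE-43547A1), MSH6 (-0.40 ± 0.054 with rakicidin A and -1.18 ± 0.054 with BE-43547A1) and MLH3 (-0.60 ± 0.065 with rakicidin A and -0.997 ± 0.065 with BE-43547A1), with adjusted p at most 2.52e-06.

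Genes of the cell cycle also changed. Of 26 genes of the G1/S transition 15 fell (57.7%) and 5 rose (19.2%) with rakicidin A, beside 32.7% and 31.9% of all features. With BE-43547A1 19 fell (73.1%) and 3 rose (11.5%), beside 35.1% and 35.3%. Their medians were -0.40 for rakicidin A and -0.44 for BE-43547A1. RRM2, a subunit of ribonucleotide reductase, changed by -0.81 ± 0.055 with rakicidin A and -0.80 ± 0.055 with BE-43547A1, whereas CDC6, which loads the replicative helicase, rose by 2.46 ± 0.066 with rakicidin A and 0.90 ± 0.063 with BE-43547A1 and E2F7, a repressor of E2F targets, by 1.505 ± 0.056 with rakicidin A and 0.81 ± 0.056 with BE-43547A1 (adjusted p at most 3.94e-10). Of 24 genes of mitosis 23 (95.8%) fell with each compound, with medians of -0.90 for rakicidin A and -1.31 for BE-43547A1, and UBE2C rose with both. KIF20A, a kinesin of cell division, changed by -2.45 ± 0.077 with rakicidin A and -2.90 ± 0.077 with BE-43547A1, BUB1B, a spindle checkpoint kinase, by -1.54 ± 0.058 with rakicidin A and -1.90 ± 0.058 with BE-43547A1, and TOP2A, a topoisomerase, by -1.51 ± 0.057 with rakicidin A and -1.67 ± 0.058 with BE-43547A1 (adjusted p at most 4.39e-14). Summed, the mitosis genes came to 5027 to 5124 CPM with rakicidin A, 4122 to 4442 with BE-43547A1 and 7869 to 8253 in DMSO. The G1/S genes came to 2604 to 2659 CPM with rakicidin A, 1976 to 2062 with BE-43547A1 and 2498 to 2579 in DMSO. This sum was highest with rakicidin A although most of its genes fell. CDC6 and E2F7, which rose with rakicidin A, are part of the sum, and how much each gene sets its place above DMSO was not tested. The part of these cell cycle differences in the members' changes was not tested.

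**Figure D5:**
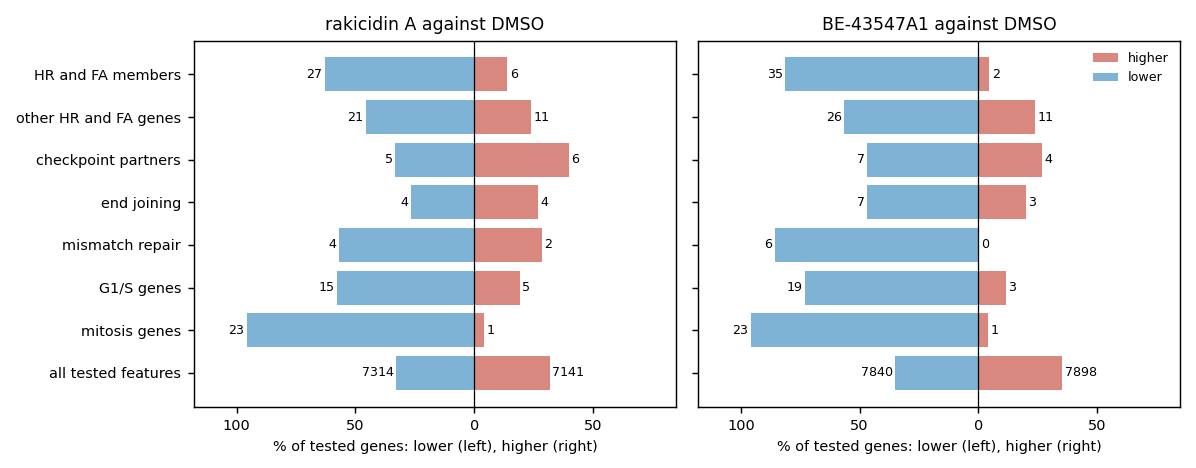
Percent of tested genes of each list that were lower (left) or higher (right) than in DMSO at an adjusted p below 0.05, for rakicidin A and BE-43547A1, with the number of genes beside each bar. The members and the mitosis genes lean to the left in both panels, and all tested features are nearly balanced.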

How the data were processed

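RNA of 9 libraries was sequenced. The submitters' processing notes name TopHat2, HTSeq, GRCh37 and hg19; which versions or strand mode they used is not given in the sources used here. Unnormalized counts were deposited by the authors for each feature in each library. Entries for reads without a gene (5) were left out (no feature: 16.4 to 20.8% of reads). The counts went into edgeR 4.0.16 under R 4.3.3, with filterByExpr, TMM and a quasi-likelihood fit of 1 mean per group (6 residual degrees of freedom). Adjustment was by Benjamini-Hochberg over all 22353 tested features, passing below 0.05. An SE is the size of a log2 fold change divided by the root of its F statistic, and intervals are at 95%. PCR copies were not marked, so counts need not be independent molecules.

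The members and lists were chosen with earlier results of these data known. Library values are given for up to 3 members of each of 8 role groups with the smallest product of unadjusted p over both compounds against DMSO (up to 2 in groups of 3 or fewer), for members that passed in opposite directions, and for BRCA1 and BRCA2. Each other list names up to 3 genes by the same product. Lists were described by counts and medians, not tested. No libraries were identical.

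Alternatives were scaling by RLE or by total counts alone, dropping the filter, DESeq2 1.42.0, voom of limma 3.58.1, 6 libraries, a replicate block, a minimum log2 fold change of 1, and each library left out. The pipeline was tested on simulated data. Exon lengths and overlapping genes came from GENCODE v29 (GRCh38), promoters from RefSeq (GRCh38.p14), and figures from matplotlib 3.10.9 in python 3.11.15.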

Additional observations from a re-analysis of the deposited data

How the results depend on the processing

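Of 2064 values of single members under the alternatives, 1933 kept their direction and their side of the threshold, and of 1568 that rested on a call, 75 lost it or turned. With scaling by total counts alone, members higher with rakicidin A went to 1 and with BE-43547A1 to 0, members lower in the direct comparison to 2, and all features called with rakicidin A to 4477 higher and 11392 lower, against 7141 and 7314. It turned the rakicidin A values of FANCA (-0.31), FANCB (-0.23), FANCC (-0.31), RBBP8 (-0.13), EXO1 (-0.27), ATM (-0.13), TOPBP1 (-0.30) and CHEK1 (-0.14). It also turned the BE-43547A1 values of WRN (-0.087), RAD50 (-0.0094), RBBP8 (-0.10) and MUS81 (-0.18), and the direct values of XRCC3 (-0.051), FANCG (-0.064), MRE11A (-0.064) and RBBP8 (-0.026). This follows from the scaling factors, and which scaling is closer to the cells was not tested. A minimum log2 fold change of 1 left 0 higher and 7 lower with rakicidin A, 0 higher and 12 lower with BE-43547A1, and 0 either way in the direct comparison. With no filter 1 member was higher with BE-43547A1 and 2 were lower in the direct comparison, RECQL4 turned to 0.0055 with BE-43547A1, and the fit of 6 libraries gave 2 lower in the direct comparison and turned NBN with rakicidin A to 0.0057; the cause was not tested.

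With single libraries left out, members higher and lower numbered 6 and 24 to 28 with rakicidin A, 1 to 2 and 33 to 37 with BE-43547A1, and 22 to 29 and 0 to 2 in the direct comparison. Values that turned were near 0: with rakicidin A NBN (-0.064 to 0.024), FANCC (-0.063 to 0.12), XRCC3 (-0.16 to 0.0012) and RECQL4 (-0.087 to 0.013), with BE-43547A1 RECQL4 (-0.069 to 0.069), and in the direct comparison RECQL4 (-0.087 to 0.022), MRE11A (-0.010 to 0.11) and FANCG (-0.024 to 0.0996). Other values that did not pass also varied: with rakicidin A EXO1 (0.032 to 0.14) and FANCB (0.061 to 0.18), and in the direct comparison BRIP1 (-0.15 to -0.0036), RAD51B (-0.25 to -0.035), RMI1 (0.062 to 0.29) and XRCC3 (0.017 to 0.12). No clear pairing by replicate number was seen: over 9 same-numbered pairs r ran from -0.057 to 0.12, with 1 above 0.1. Such a check cannot exclude a pairing. With the replicate number as a block, 6 members were higher and 28 lower with rakicidin A, 2 and 35 with BE-43547A1, and 27 and 2 in the direct comparison. Depth limits the genes with few counts, such as RMI2, RAD51B and RMI1, whose intervals are widest.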

Other observations

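Some repair and replication genes outside the member list differed between the compounds by as much as the most different members or more, and they are named here after their values were seen. FIGNL1 and CDC6 lay well above FANCF (0.94 ± 0.12), the member with the largest difference, while DCLRE1C and ERCC4 lay within its SE. The largest direct difference among the checkpoint partners, 1.13, lay above FANCF as well. FIGNL1, an ATPase that acts in recombination, averaged 149 ± 7.99 CPM with rakicidin A, 50.2 ± 4.03 CPM with BE-43547A1 and 145 ± 9.49 CPM in DMSO (SD, n = 3 libraries each). Its log2 fold change was 0.04 ± 0.067 with rakicidin A (edgeR adjusted p 0.587) and -1.53 ± 0.069 with BE-43547A1 (adjusted p 5.92e-13), and rakicidin A exceeded BE-43547A1 by 1.57 ± 0.069 (adjusted p 1.98e-11). CDC6, described above, averaged 538 ± 16.5 CPM with rakicidin A, 183 ± 15.4 CPM with BE-43547A1 and 97.8 ± 4.30 CPM in DMSO (SD, n = 3 libraries each), with a direct difference of 1.56 ± 0.064 (adjusted p 1.66e-11). DCLRE1C, the nuclease Artemis of end joining, averaged 30.5 ± 1.18 CPM with rakicidin A, 15.6 ± 1.07 CPM with BE-43547A1 and 15.9 ± 1.64 CPM in DMSO (SD, n = 3 libraries each). It passed as higher with rakicidin A (0.94 ± 0.084, adjusted p 1.17e-08) and gave -0.03 ± 0.084 with BE-43547A1 (adjusted p 0.76), with a direct difference of 0.97 ± 0.083 (adjusted p 3.33e-08). ERCC4, the nuclease XPF that unhooks crosslinks, gave 0.13 ± 0.068 with rakicidin A (adjusted p 0.0916) and -0.81 ± 0.069 with BE-43547A1 (adjusted p 5.2e-09), with a direct difference of 0.95 ± 0.069 (adjusted p 5.57e-09), whereas its partner ERCC1 rose with both, by 0.82 ± 0.062 with rakicidin A and 0.89 ± 0.061 with BE-43547A1 (adjusted p 1.24e-09 and 2.6e-10).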
